A study of Mus musculus with 6 samples.

Results

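The regulators of G protein signalling, or RGS genes, were followed in the aortas of mice given angiotensin II (Ang II), a vasoconstrictor peptide used to provoke remodelling of the vessel wall. The members were 10 genes taken by symbol from the deposited gene table, Rgs1, Rgs2, Rgs3, Rgs4, Rgs5, Rgs10, Rgs12, Rgs14, Rgs16 and Rgs19, out of 41064 genes in the table. A further 11 numbered Rgs genes are in it. All 10 members passed the filter on low counts, as did 20132 genes in all. The study compared 3 aorta libraries from wild type mice with 3 labelled JOSD2 KO, a knockout of the deubiquitinase gene Josd2, and both groups had received Ang II. The labels give no strain, age, sex, dose or duration, do not say how the allele was made or in which cells, and tie no library to an animal. Aortas without Ang II were not analysed here, so each value compares the labelled genotypes under treatment, and p-values measure the spread between these libraries, which may be technical.

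A receptor that binds its ligand loads GTP onto the alpha subunit of a heterotrimeric G protein, and the signal lasts until that GTP is cleaved. RGS proteins bind the active alpha subunit and speed the cleavage, which shortens signals of receptors coupled to Gi or Gq, among them those of angiotensin, endothelin and noradrenaline in vascular smooth muscle. The family is divided by its RGS domain and the domains beside it. The small R4 proteins are here Rgs1, Rgs2, Rgs3, Rgs4, Rgs5 and Rgs16, the R12 proteins Rgs10, Rgs12 and Rgs14, and the RZ class is represented by Rgs19.

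Levels are given on 2 scales. CPM are counts scaled to a common library size with TMM factors, a method that sets the bulk of genes level between libraries, and serve for comparing a gene between groups. FPKM are the deposited values per kilobase, scaled to the whole library, and serve for comparing genes with each other. The scales part here. Transcripts of the mitochondrial genome took 36.2% of all counts in each wild type library and between 23.8% and 23.9% in the libraries labelled knockout. On library totals the median tested gene stood at 0.41 on the log2 scale, against 0.00 on the TMM scale. Library totals without mitochondrial genes and 8 nuclear genes similar to them gave a median of 0.03. The part of the mitochondrial genome alone in the shift was not tested. Changes below are relative to the median gene of TMM, and each member is also given on library totals. Josd2 itself was retained in the libraries labelled knockout, at 21.7, 19.9 and 21.4 CPM against 29.9, 31.0 and 29.3 CPM in wild type (log2 fold change -0.52, edgeR adjusted p = 0.000244, or -0.11 and 0.231 on library totals), which is why the group keeps the name of its label here. The tissue label was checked on the smooth muscle markers Myh11, Acta2, Tagln, Cnn1, Smtn and Lmod1, whose summed level was 20346 to 20522 CPM in wild type, against 19795 to 19913 CPM among the labelled knockouts.

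Between the groups, 5 members fell (Rgs1, Rgs2, Rgs5, Rgs10 and Rgs19), 1 rose (Rgs16), and Rgs3, Rgs4, Rgs12 and Rgs14 did not pass edgeR's quasi-likelihood test at an adjusted p under 0.05. Of all tested genes, 11.5% were called lower, 13.2% higher and 24.7% in either direction. The members' median log2 fold change was -0.53, beside 0.00 for all tested genes. On library totals 2 members were called lower (Rgs1 and Rgs5) and 4 higher (Rgs3, Rgs4, Rgs12 and Rgs16), where 3.81% of tested genes were called lower, 46.8% higher and 50.6% in either direction. The falls of Rgs1 and Rgs5 and the rise of Rgs16 thus passed with both scalings, while the calls of Rgs2, Rgs10 and Rgs19 were made with TMM and not with library totals. The members were chosen with earlier results of these data known, so these counts say nothing about the family against other genes.

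**Figure D1:**
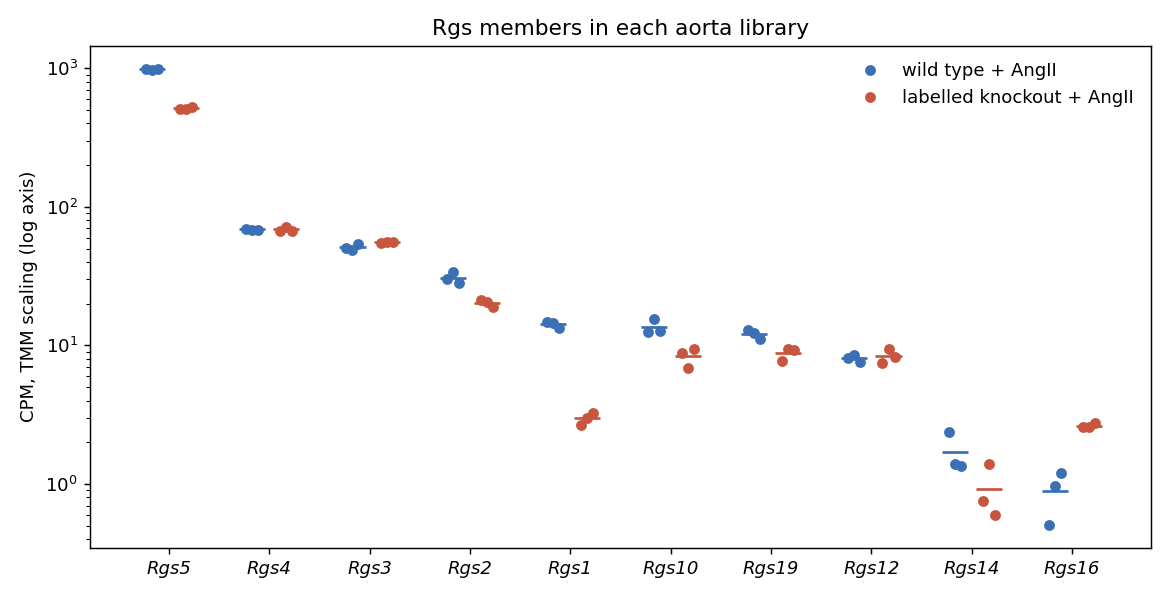
Level of each member in each library, in CPM after TMM scaling on a log axis, with wild type in blue, the libraries labelled knockout in red and bars at the mean of 3 libraries. Rgs5 falls from 983 to 516 CPM and Rgs1 from 14.2 to 2.98 CPM, Rgs16 rises from 0.890 to 2.64 CPM, and the groups of Rgs4, Rgs12 and Rgs14 overlap.

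Rgs5, an R4 protein and a known marker of pericytes and arterial smooth muscle, was the most abundant member. It lies on chromosome 1 from 169655501 to 169695813 on the plus strand, on GRCm38 coordinates as the deposited table gives them, and its neighbour Rgs4 lies at 169741477 to 169747642 on the minus strand. The ends of these genes face each other across 45663 bases that hold no other gene of the table. Of the 10 members 5 lie on chromosome 1, as do 11 Rgs genes of the table in all. RefSeq promoter windows on GRCm38.p6, each 300 bases from 250 before to 50 after a start site, were found for 8 members, and none matched Rgs1 or Rgs14. The windows of the 4 R4 members on chromosome 1 that have one are shown 5′ to 3′ on the gene's own strand, because Rgs5 and Rgs2 fell, Rgs16 rose and Rgs4 did not pass. Capitals mark matches on either strand to CCAAT, to TATAAA (the TATA box) or to GGAAA (the core of NFAT sites), and none of these letters overlaps another match.
Rgs5, chr1:169655251-169655550, plus strand: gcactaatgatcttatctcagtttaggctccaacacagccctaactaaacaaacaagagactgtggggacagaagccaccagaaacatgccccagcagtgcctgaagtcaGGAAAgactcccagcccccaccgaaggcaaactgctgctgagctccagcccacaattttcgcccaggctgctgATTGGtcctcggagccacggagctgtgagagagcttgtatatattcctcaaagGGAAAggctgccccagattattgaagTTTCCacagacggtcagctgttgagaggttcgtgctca
Rgs4, chr1:169747593-169747892, minus strand: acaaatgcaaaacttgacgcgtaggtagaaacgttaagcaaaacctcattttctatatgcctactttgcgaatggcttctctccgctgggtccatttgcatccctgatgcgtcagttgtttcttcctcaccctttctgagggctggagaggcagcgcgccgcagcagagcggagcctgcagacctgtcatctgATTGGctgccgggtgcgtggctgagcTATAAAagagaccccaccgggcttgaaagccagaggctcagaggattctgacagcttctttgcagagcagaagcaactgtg
Rgs2, chr1:144004100-144004399, minus strand: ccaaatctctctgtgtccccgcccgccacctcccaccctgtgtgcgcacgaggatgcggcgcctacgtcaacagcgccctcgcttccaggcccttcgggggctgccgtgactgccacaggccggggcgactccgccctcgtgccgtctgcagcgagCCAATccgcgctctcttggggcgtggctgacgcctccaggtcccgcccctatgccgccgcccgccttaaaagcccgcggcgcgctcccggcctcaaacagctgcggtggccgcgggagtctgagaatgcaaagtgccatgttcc
Rgs16, chr1:153740103-153740402, plus strand: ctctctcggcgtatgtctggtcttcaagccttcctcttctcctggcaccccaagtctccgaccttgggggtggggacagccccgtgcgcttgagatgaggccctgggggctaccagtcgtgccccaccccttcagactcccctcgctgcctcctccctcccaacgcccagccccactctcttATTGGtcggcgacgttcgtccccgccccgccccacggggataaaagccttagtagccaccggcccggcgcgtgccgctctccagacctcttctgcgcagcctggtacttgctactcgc
Each of these windows holds a single match to CCAAT, starting at -67 in Rgs5, -57 in Rgs4, -94 in Rgs2 and -68 in Rgs16 with the start site as 0. CCAAT was found in no window of the other 4 members searched and in 37.4% of 32851 RefSeq windows of that length. TATAAA was found at -31 in Rgs4 and also in Rgs3, and in 13.6% of all windows. GGAAA was found in Rgs5, Rgs3 and Rgs19 and in 61.3% of all windows. A match to TGANTCA (the AP-1 site) was found in Rgs12 alone among the 8 members and in 7.81% of all windows. No window of a member held the CArG box, TGACGTCA (the cyclic AMP response element) or GTCTAGAC (a SMAD palindrome), found in 1.63%, 1.79% and 0.213% of all windows. These are matches of letters in a short window, not sites shown to be bound. For Rgs3, Rgs12 and Rgs19, which have several windows each, a match in any of them was counted. The percentages are over single windows.

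In wild type Rgs5 stood at 991, 970.0 and 989 CPM, and in the libraries labelled knockout at 512, 511 and 525 CPM. The groups lie far apart, and within each group the libraries differed by a few percent. The log2 fold change was -0.93 (SE 0.02, 95% interval -0.97 to -0.89, edgeR adjusted p = 1.92e-11), which is 1.91-fold lower. On library totals it was -0.52 (95% interval -0.56 to -0.48, edgeR adjusted p = 2.59e-09), or 1.43-fold lower. In aorta Rgs5 comes from mural cells, and fewer such cells and less RNA per cell cannot be told apart in whole tissue. Of the 6 smooth muscle markers, 4 were higher and 1 lower (Acta2), and their levels among the labelled knockouts were 81.4% to 121% of the wild type mean, against 52.5% for Rgs5. Among 8 pericyte markers 3 rose and 1 fell, with 4 that did not pass, and their summed level was 929 to 964 CPM in wild type, against 994 to 1008 CPM among the labelled knockouts. The pericyte genes called were Abcc9, a subunit of potassium channels, at 0.72, Notch3 at 0.37, Pdgfrb at 0.27 and the proteoglycan gene Cspg4 at -0.24 on the log2 scale, named after their values were seen. Of those that did not pass, Kcnj8 and Cox4i2 stood at 113% and 144% of the wild type mean. Ndufa4l2 stood at 83.7% and Higd1b, at 0.635 CPM in wild type, at 66.0%. On library totals Acta2 and Cspg4 were higher, at 0.11 and 0.17. None of these 14 markers was at 0.

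**Figure D2:**
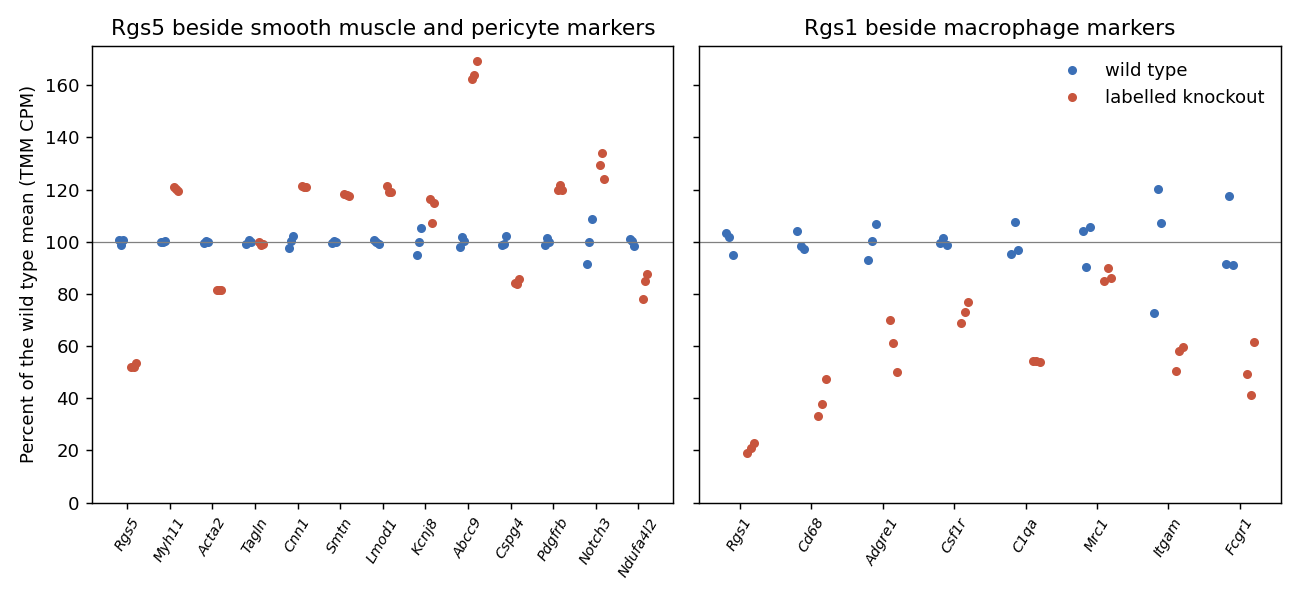
Level in each library as a percentage of the wild type mean (CPM after TMM scaling) for Rgs5 beside smooth muscle and pericyte markers and for Rgs1 beside macrophage markers, for markers with at least 5 CPM in wild type. The pericyte markers Higd1b and Cox4i2 lie under that level and are not drawn. Rgs5 lies at 51.9% to 53.4% in the libraries labelled knockout while the markers beside it lie at 78.2% or above, and Rgs1 lies at 18.96% to 23.1% with Cd68 at 33.2% to 47.4%.

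Rgs4, another R4 protein of smooth muscle, heart and brain, did not pass the test. It was measured at 69.5, 68.5 and 68.0 CPM in wild type and at 67.4, 72.0 and 67.0 CPM in the libraries labelled knockout. The groups overlap, and the difference was 0.00 on the log2 scale (95% interval -0.10 to 0.10, edgeR adjusted p = 0.98). On the deposited FPKM scale the same libraries read 16.5, 16.2 and 16.2 against 21.2, 22.6 and 21.1, without overlap, and on library totals the difference was 0.41 (95% interval 0.31 to 0.51, edgeR adjusted p = 2.34e-05), close to the shift of the median gene. Whichever scaling is used, the ratio of the 2 genes within a library is the same. Rgs5 over Rgs4, in FPKM, was 9.72, 9.64 and 9.91 in wild type and 5.17, 4.84 and 5.34 among the labelled knockouts (9.76 ± 0.136 against 5.12 ± 0.259, SD, n = 3). The ratios of the groups do not overlap.

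Rgs2 encodes an R4 protein that acts mainly on Gq and is known as a brake on angiotensin and other constrictor signals in smooth muscle. It was present at 30.2, 33.8 and 28.3 CPM in wild type and at 21.3, 20.5 and 18.96 CPM in the libraries labelled knockout, without overlap. It fell by 0.60 on the log2 scale (SE 0.09, 95% interval -0.79 to -0.41, edgeR adjusted p = 0.000362). Library totals gave -0.19 (95% interval -0.38 to 0.00) and an edgeR adjusted p of 0.0865, so that the call was lost, and the FPKM of the groups, 5.72 to 6.83 against 5.10 to 5.72, meet within rounding.

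Rgs1, an R4 protein best known from lymphocytes and other leukocytes, where it dampens chemokine receptor signals, had the largest fall among the members. Its level was 14.6, 14.4 and 13.5 CPM in wild type and 2.69, 2.99 and 3.27 CPM in the libraries labelled knockout. No library of either group came near the other. The log2 fold change was -2.25 (SE 0.13, 95% interval -2.54 to -1.95, edgeR adjusted p = 3.96e-07), 4.75-fold lower, and -1.84 on library totals, 3.57-fold lower. Beside it, 6 of 7 macrophage markers fell and 1 (Mrc1) did not pass, and their summed level was 246 to 259 CPM in wild type, against 160.3 to 165 CPM among the labelled knockouts. In the labelled knockouts these markers kept 39.4% (Cd68) to 87.1% (Mrc1) of the wild type mean and Rgs1 kept 21.04%. On library totals 4 of the 7 were lower and 1 was higher. The 5 B cell markers summed to 5.17 to 9.83 CPM in wild type, against 4.53 to 5.42 CPM among the labelled knockouts, and none of them passed. Of the 5 T cell markers 1 was higher (Cd8a), with sums of 3.32 to 6.30 against 6.16 to 6.64 CPM. The neutrophil markers summed to 2.62 to 5.15 and 5.40 to 5.92 CPM with the defining gene Ly6g at 0 in all libraries. The part of these cells in the fall of Rgs1 was not tested.

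Rgs16 was the member that rose. It encodes an R4 protein acting on Gi and Gq whose transcript is known to be induced by stimuli in several cell types. Its level was low in all libraries, 0.508, 0.967 and 1.20 CPM in wild type and 2.56, 2.60 and 2.76 CPM in the libraries labelled knockout. The groups do not overlap, but the wild type values spread widely, from 28 to 77 deposited counts, which by the reading of about 4 counts per read pair come to 40 read pairs over the 3 libraries against 166 among the labelled knockouts. The log2 fold change was 1.56 (SE 0.33, 95% interval 0.83 to 2.29, edgeR adjusted p = 0.00514), 2.96-fold higher, and 1.97 on library totals, 3.92-fold higher. An antisense gene, Gm28513, overlaps 10.1% of the exon bases of Rgs16 and was at 0 counts in all 6 libraries. All 6 endothelial markers rose, from summed levels of 295 to 298 CPM in wild type to 493 to 504 CPM among the labelled knockouts. White fat markers, 2 of 4 called higher, went from sums of 40.4 to 43.1 CPM to 58.5 to 64.4 CPM. Of those that did not pass, Lep stood at 180% of the wild type mean and Cidec at 84.8%. Striated muscle markers, 2 of 5 called higher (Tnnt2 and Actn2), went from sums of 26.3 to 28.5 CPM to 41.9 to 42.9 CPM. Myh6, Ckm and Myl2 did not pass and stood at 140%, 96.8% and 48.6% of the wild type mean. The T cell marker Cd8a was higher too, at 0.358 CPM in wild type against 1.87 CPM among the labelled knockouts. The T cell markers Cd3e, Cd3d, Cd3g and Cd4 did not pass, at 105%, 121%, 62.9% and 247% of the wild type mean. The part of any of these cell types in the rise of Rgs16 was not tested.

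Rgs3, the longest of the R4 members, with several isoforms that differ in the domains before the RGS domain, was found at 50.9, 48.6 and 54.3 CPM in wild type and at 54.8, 55.7 and 55.6 CPM in the libraries labelled knockout. These groups are close without overlapping, and the difference of 0.11 on the log2 scale did not pass (95% interval -0.01 to 0.23, edgeR adjusted p = 0.17). Library totals gave 0.52 (edgeR adjusted p = 1.45e-05). At least 97% identity to the gene Gm5763 covers 67.9% of an Rgs3 transcript, so the reads of these genes are uncertain between them. Gm5763 had 312 to 477 deposited counts, against 2766 to 4861 for Rgs3.

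Of the R12 class, Rgs10, a short protein of little more than an RGS domain that is abundant in macrophages and microglia, fell. It was at 12.4, 15.4 and 12.7 CPM in wild type and 8.82, 6.90 and 9.39 CPM in the libraries labelled knockout, without overlap (log2 fold change -0.69, SE 0.14, edgeR adjusted p = 0.00485). On library totals the difference was -0.28 (95% interval -0.60 to 0.04, edgeR adjusted p = 0.137), and in FPKM the groups overlap. Beside the macrophage markers given with Rgs1, 4 of 6 platelet markers fell (1 of 6 on library totals, Ppbp). Their summed levels went from 20.2 to 23.4 CPM to 11.6 to 13.9 CPM over all 6. The platelet markers Gp9 and Gp1bb did not pass, at 11.9% and 207% of the wild type mean. The part of either cell type in the fall of Rgs10 was not tested. Rgs12 and Rgs14 are larger proteins that also bind Ras-family GTPases and carry a GoLoco motif, which holds Gi alpha in its inactive form. Rgs12 was at 8.18, 8.53 and 7.59 against 7.46, 9.42 and 8.20 CPM, and its groups overlap (0.05 on the log2 scale, 95% interval -0.25 to 0.34, edgeR adjusted p = 0.849). On library totals Rgs12 was called higher at 0.46 (edgeR adjusted p = 0.0151). An antisense gene, Gm43791, overlaps 5.50% of the exon bases of Rgs12, and at least 97% identity to it covers 24.3% of an Rgs12 transcript. No deposited counts were found for Gm43791, so its reads could not be assessed. Rgs14 was at 2.39, 1.39 and 1.35 against 0.759, 1.39 and 0.600 CPM, with 1 library labelled knockout inside the wild type range, and at -0.90 on the log2 scale (95% interval -1.79 to -0.01) it did not pass (edgeR adjusted p = 0.136), nor on library totals (-0.49, edgeR adjusted p = 0.355).

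Rgs19, also called GAIP, an RZ protein that acts on Gi-class alpha subunits and sits on membranes through a string of cysteines, was at 13.02, 12.4 and 11.1 CPM in wild type and at 7.75, 9.45 and 9.21 CPM in the libraries labelled knockout. The groups do not overlap in CPM, though they do in FPKM. It fell by 0.47 on the log2 scale (SE 0.12, 95% interval -0.74 to -0.19, edgeR adjusted p = 0.0184). That call was lost without wild type 1 (-0.41, edgeR adjusted p = 0.0594), without labelled knockout 1 (-0.38, edgeR adjusted p = 0.0706) and on library totals (-0.06, edgeR adjusted p = 0.753). Over all members, 7 of 10 had groups that do not overlap in CPM, beside 41.1% of all tested genes.

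**Figure D3:**
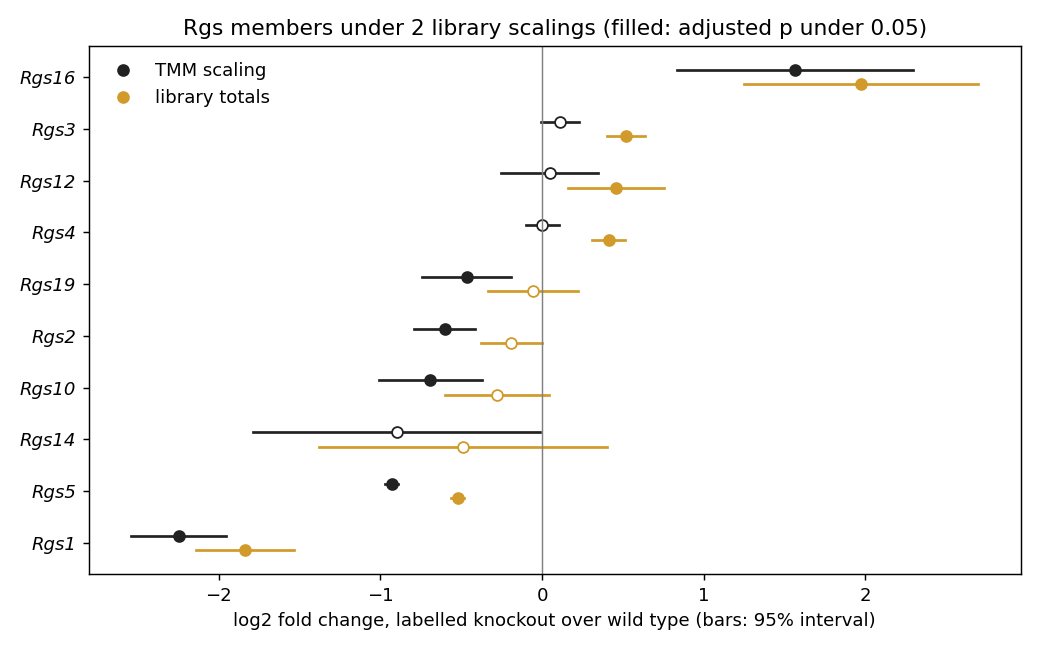
Log2 fold change of each member, labelled knockout over wild type, with 95% intervals, after TMM scaling in black and on library totals in ochre, filled where the edgeR adjusted p is under 0.05. Rgs1, Rgs5 and Rgs16 are filled on both scales, and Rgs4 moves from 0.00 to 0.41 with library totals.

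Per kilobase, Rgs5 made up most of the Rgs transcripts of the members. It stood at 157 to 160.2 FPKM in wild type, followed by Rgs4 at 16.2 to 16.5 FPKM, then by Rgs2 and Rgs10, whose ranges overlap, by Rgs19 and Rgs3, whose ranges overlap, and by Rgs1, Rgs12, Rgs14 and Rgs16, of which the last 2 overlap. In the libraries labelled knockout Rgs5 and Rgs4 again came first, the range of Rgs10 overlapped those of Rgs2, Rgs3 and Rgs19, and Rgs1, at 0.373 to 0.455 FPKM, stood below Rgs16, at 1.07 to 1.15 FPKM. In wild type Rgs1, at 1.42 to 1.54 FPKM, had stood above Rgs16, at 0.157 to 0.374 FPKM. The authors' lengths were proportional to the merged exons of each gene, which for Rgs1 span the whole gene, so genes with long rarely used exons are given too low a level per kilobase.

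Shares of the summed FPKM of the 10 members do not depend on how libraries are scaled. They are parts of the same sum, so a fall of Rgs5 by itself raises the shares of the other members. Rgs5 held 80.6%, 79.7% and 81.1% in wild type and 72.0%, 71.3% and 72.3% in the libraries labelled knockout (80.5% ± 0.686 against 71.9% ± 0.509, SD, n = 3). The share of Rgs4 was 8.25% ± 0.0585 in wild type, against 14.1% ± 0.622, and that of Rgs3 was 1.76% ± 0.0971, against 3.24% ± 0.0266. Rgs1 went from 0.756% ± 0.0322 to 0.269% ± 0.0235 and Rgs16 from 0.141% ± 0.0561 to 0.713% ± 0.0207. The share of Rgs12 was 0.353% ± 0.0208 in wild type, against 0.621% ± 0.0731, and that of Rgs19 was 2.02% ± 0.156, against 2.48% ± 0.244. For these members the shares of the groups do not overlap. They overlap for Rgs2 (3.15% ± 0.298 against 3.54% ± 0.247), Rgs10 (2.93% ± 0.374 against 3.09% ± 0.470) and Rgs14 (0.148% ± 0.0506 against 0.135% ± 0.0616). With Rgs5 left out, Rgs4 held 42.3% ± 1.32 of the remaining sum in wild type, against 49.9% ± 1.30. Rgs19 then went the other way, from 10.3% ± 0.701 to 8.82% ± 0.810, again without overlap, while Rgs3 (9.05% ± 0.799 against 11.5% ± 0.114), Rgs12 (1.81% ± 0.0486 against 2.21% ± 0.226) and Rgs16 (0.722% ± 0.297 against 2.54% ± 0.109) kept the higher share. On that base Rgs2 held 16.1% ± 0.951, against 12.6% ± 0.806, and Rgs1 3.87% ± 0.122, against 0.957% ± 0.0895. Rgs10 then held 15.0% ± 1.43 in wild type, against 11.0% ± 1.85, without overlap. The groups of Rgs14 still overlapped (0.760% ± 0.266 against 0.477% ± 0.209).

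**Figure D4:**
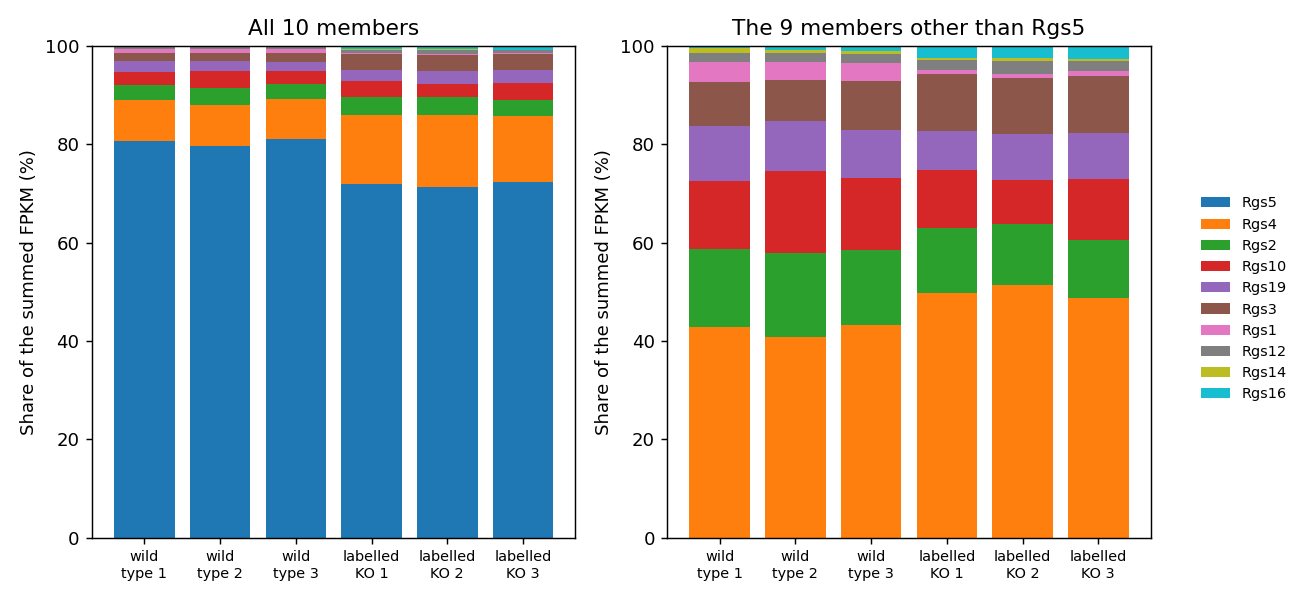
Share of each member in the summed deposited FPKM of the members, per library, for all 10 members and for the 9 other than Rgs5, with bars starting at 0 and ending at 100%. In wild type Rgs5 takes 79.7% to 81.1%, and with the knockout label 71.3% to 72.3%.

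The remaining Rgs genes and their membrane partners formed a list of 13 genes, of which 7 had enough counts to be tested. Among these, 1 rose, 1 fell and 5 did not pass, with a median log2 fold change of -0.20. For this list and those below, 13.2% of all tested genes were higher and 11.5% lower, or 46.8% and 3.81% on library totals. Rgs17, an RZ protein like Rgs19, fell from 7.47 ± 1.13 to 3.87 ± 0.572 CPM (SD, n = 3; log2 fold change -0.95, SE 0.18, edgeR adjusted p = 0.00257). On library totals Rgs17 stood at -0.54 (edgeR adjusted p = 0.0270), and its call was lost in 2 of 16 other settings. Rgs11, of the R7 class that works bound to the beta subunit Gnb5, rose by 0.45 (SE 0.15, edgeR adjusted p = 0.0479), a call that was lost without any 1 of the 6 libraries (edgeR adjusted p of 0.0601 to 0.195) and with the replicate number as a block (0.44, edgeR adjusted p = 0.0838). Rgs7bp, which anchors R7 proteins to the membrane, stood at -0.20 and did not pass (edgeR adjusted p = 0.113). It did without labelled knockout 1, at -0.28 (edgeR adjusted p = 0.0375), and in DESeq2 (-0.20, DESeq2 adjusted p = 0.0258).

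RGS proteins act on the alpha subunits of G proteins. Of 13 alpha subunit genes 2 rose, none fell and 11 did not pass, with a median of 0.11. Gnao1, the Go subunit, rose from 31.8 ± 1.96 to 48.6 ± 1.01 CPM (0.61, edgeR adjusted p = 2.8e-05) and Gnas, the Gs subunit, from 498 ± 4.12 to 536 ± 3.34 CPM (0.11, edgeR adjusted p = 0.00111), while Gna13 stood at -0.20 (edgeR adjusted p = 0.0807). On library totals 11 of the 13 were higher, beside 46.8% of all tested genes, and DESeq2 called 4 higher and 2 lower. Of 14 tested beta and gamma subunit genes 1 rose (Gng8 at 0.75, edgeR adjusted p = 0.0202), 4 fell and 9 did not pass. The 4 falls became 0 on library totals, where 7 genes were higher, 1 with the replicate block or with no filter on low counts, and 0 or 1 without any of 5 libraries (all but wild type 2). Gng10 was at -0.30 (edgeR adjusted p = 0.0139), lost its call without labelled knockout 2 or 3 (edgeR adjusted p = 0.0504 and 0.0622) and has the opposite sign on library totals (0.11). The sparse Gng4 was at -1.60 (edgeR adjusted p = 0.0327), a call lost in 8 of 16 other settings. The call of Gng8 was lost on leaving out wild type 1 or the first or second labelled knockout (edgeR adjusted p = 0.0575, 0.0697 and 0.0886).

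Receptors that RGS proteins restrain changed in both directions. Of 28 receptors of vessels, 10 rose, 8 fell and 10 did not pass, with a median of -0.02 on the log2 scale. Over all tested genes 13.2% were higher and 11.5% lower. On library totals 15 receptors were higher and 6 lower, beside 46.8% and 3.81% of all tested genes. S1pr3, a receptor for sphingosine 1-phosphate, fell from 55.5 ± 2.96 to 5.40 ± 0.568 CPM (-3.36, SE 0.09, edgeR adjusted p = 4.14e-10). The vasopressin receptor gene Avpr1a fell from 11.99 ± 1.59 to 0.393 ± 0.0928 CPM (-4.93, SE 0.22, edgeR adjusted p = 3.31e-08). Ednrb, an endothelin receptor of endothelium and other cells, rose from 8.74 ± 0.776 to 29.7 ± 1.81 CPM (1.77, SE 0.09, edgeR adjusted p = 1.71e-07). These 3 calls held on library totals. The 2 genes of the type 1 angiotensin receptor, on which the peptide given to both groups acts, are named here outside the rule and after their values were seen. Agtr1b stood at 6.98, 6.12 and 7.14 CPM in wild type and at 2.05, 1.72 and 2.59 CPM with the knockout label, without overlap. It fell by 1.67 on the log2 scale (SE 0.20, 95% interval -2.11 to -1.23, edgeR adjusted p = 0.000104), and by 1.26 on library totals (edgeR adjusted p = 0.000349). Agtr1a, at 0.215 FPKM in wild type beside 2.30 FPKM for Agtr1b, had 0.821 ± 0.0717 and 1.20 ± 0.152 CPM and did not pass (0.54, 95% interval -0.20 to 1.28, edgeR adjusted p = 0.284), but was called higher on library totals (0.95, edgeR adjusted p = 0.0329). These genes are close paralogs, and how reads were divided between them was not tested.

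Downstream of Gq and G12/13, 6 of 15 effector genes rose, none fell and 9 did not pass, with a median of 0.22. On library totals 13 were higher. Over all tested genes 13.2% were higher, or 46.8% on library totals. Plcb4, a phospholipase C that Gq switches on and whose beta class can itself speed GTP cleavage on Gq, rose from 101 ± 5.002 to 197 ± 1.06 CPM (0.96, SE 0.04, edgeR adjusted p = 1.77e-08). Arhgef1 (0.56, edgeR adjusted p = 2.65e-06) and Arhgef12 (0.31, edgeR adjusted p = 0.000271), exchange factors that link G12/13 to RhoA through an RGS-like domain of their own, rose as well. Among 7 receptor kinases and arrestins, which switch receptors off, 3 rose, 1 fell and 3 did not pass (5 higher and none lower on library totals). Arrb1 rose by 0.54 (edgeR adjusted p = 1.24e-05) and the receptor kinase gene Grk5 by 0.31 (edgeR adjusted p = 0.00172), whereas Arrb2 fell by 0.65 (edgeR adjusted p = 0.000416). On library totals Arrb2 lost its call (-0.24, edgeR adjusted p = 0.0531). Of 6 exchange factors and GoLoco proteins that act on alpha subunits, 1 rose, Gpsm1 at 0.49 (edgeR adjusted p = 0.00253; 5 were higher on library totals), and 5 did not pass, among them Gpsm3 at -0.42 (edgeR adjusted p = 0.078) and Ric8b at 0.14 (edgeR adjusted p = 0.322).

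**Figure D5:**
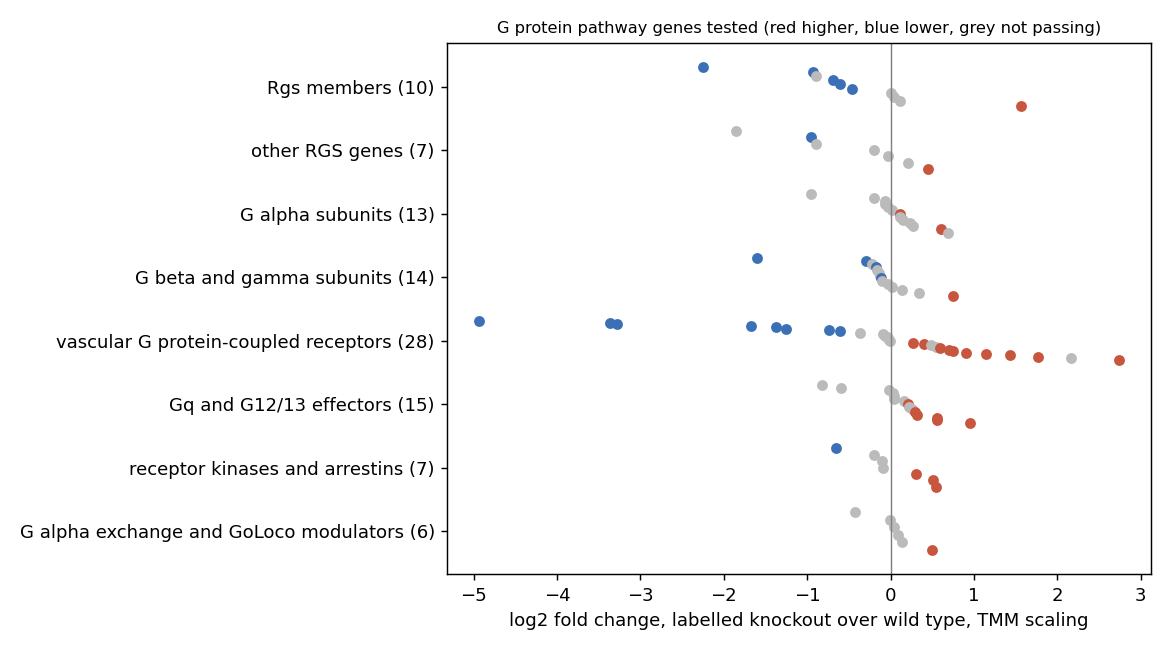
Log2 fold change after TMM scaling, labelled knockout over wild type, of every tested gene of the members and of 7 lists of the G protein pathway, 1 point per gene, red where called higher, blue where called lower and grey where the test was not passed. Members hold 5 blue points and 1 red, effectors 6 red and no blue, and the 28 receptors 10 red and 8 blue. Of all tested genes 11.5% were called lower and 13.2% higher. On library totals 2 members were lower and 4 higher, and the members were chosen with earlier results of these data known.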

How the data were processed

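RNA was measured in 6 aorta samples, 3 per group. The labels' protocols name Trizol for extraction, poly(A) selection and paired-end reads from a NovaSeq. Bowtie 0.12.2, HISAT2 2.0 and mm8 appear in the submitters' processing notes, which give their roles nowhere. The counting step and any use of strand: not given in the sources used here. Gene coordinates in the table equal those of GENCODE M21 (GRCm38) for 92.5% of shared identifiers, and no mm8 coordinates were used.

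The deposited estimated counts are whole numbers, summing to 63612353 to 75886761 per library. Low values peak at 4, which was read as about 4 counts to a read pair, without a source that says so. The deposited FPKM were made by the authors per kilobase and library total. Counts were rounded, filtered with filterByExpr, scaled with TMM and tested with the quasi-likelihood test of edgeR 4.0.16 in R 4.3.3, with Benjamini-Hochberg adjustment over 20132 genes. SE is the log2 fold change over the square root of the test's F. The edgeR steps were tested on simulated counts without the shift in the mitochondrial share, which cannot decide between the scalings. Alternatives used DESeq2 1.42.0, limma 3.58.1 on FPKM, other scalings and filters, a replicate block and each library left out. Transcripts were compared with BLAST+ 2.17.0.

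Members and gene lists were chosen with earlier results of these data known. Named genes are the members, Josd2 and up to 3 tested genes of each pathway list with the smallest p. Gngt1, on the list of gamma subunits, was not analysed here.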

Additional observations from a re-analysis of the deposited data

How the results depend on the processing

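Over 17 other settings, the falls of Rgs1 and Rgs5 and the rise of Rgs16 kept direction and call in each setting that tested them (16 for Rgs1 and Rgs16, which a filter on a mean FPKM of at least 1 removes), with log2 fold changes of -2.32 to -0.82, -0.95 to -0.52 and 0.72 to 1.97. With library totals, limma on log2(FPKM + 1) and limma on log2(FPKM + 0.1), genes called numbered 10193, 10314 and 10196 in place of 4981, members higher 4, 4 and 3 in place of 1, members lower 2, 2 and 2 in place of 5, pathway genes higher 57, 56 and 56 in place of 24 and pathway genes lower 7, 9 and 8 in place of 14. Calls were then 92.5%, 91.6% and 91.5% higher, against 53.4%. In these 3 settings Rgs7bp turned to 0.21, 0.17 and 0.21, Gna13 to 0.21, 0.17 and 0.20 and Gng10 to 0.11, 0.11 and 0.11. With a mean FPKM of at least 1, 0 members were called higher, since Rgs16 was not tested. Rgs4, at 0.00, turned to -0.0042 with median-of-ratios factors, -0.0040 in DESeq2 and -0.0153 with that FPKM filter. Leaving out each library gave it -0.0314 (without labelled knockout 2) to 0.0212, below 0 also without wild type 3 (-0.0024), and Rgs12 -0.0478 (without labelled knockout 2) to 0.122. Leaving out each library gave 3833 to 4528 genes called, 1 to 1 members higher, 4 to 5 lower, 20 to 23 pathway genes higher and 9 (without labelled knockout 2) to 13 lower. Shares of Rgs5 were 80.2% to 80.9% and 71.6% to 72.1%, and in counts in place of FPKM 83.0% and 74.5%. Library totals without mitochondrial genes and their nuclear copies, chosen after seeing the data, called 1 member higher and 5 lower, as with TMM. Libraries with the same replicate number correlated weakly (r = 0.0354 to 0.0923, each the highest of its library), and other pairs gave -0.0576 to 0.0219. Whether equal numbers mark pairs is not given in the labels. The replicate block called 4560 genes and changed no call of a member. Low counts limit Rgs14 and Rgs16.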
